A study of Homo sapiens with 47 samples.

Results

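The RAB genes are the rows of the count table whose symbol is RAB followed by a number and, in some, a letter or a further digit. There were 49 of them among 18650 gene rows, measured in 47 single cells of HEK293, an established line derived from human embryonic kidney. The cells were grown in DMEM with serum, and the labels name 1 run, no treatment and no separate cultures. The cells are therefore described as 1 sample, with their spread, and no p-value is given. Each value is a number of unique molecular identifiers (UMIs), random tags that mark a cDNA molecule at the 5' end of its transcript.

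RABs are small GTPases that mark the membranes of the secretory and endocytic pathways. Each cycles between a GTP-bound form, which recruits motors, tethers and other effectors, and a GDP-bound form, which is extracted from the membrane by GDP dissociation inhibitors. Exchange factors switch them on, GTPase-activating proteins switch them off, and a lipid anchor added by geranylgeranyl transferase holds them on membranes. Many come as paralogs with overlapping roles, so the paralog a cell uses is part of its description.

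A cell had 29325 to 138647 endogenous UMIs, with a median of 59689, and 2573 to 4717 UMIs of the ERCC spike-ins, synthetic RNAs added at 20000 molecules per cell. Of 8 genes listed as HEK293-associated, 7 had a UMI in at least 24 cells, with SOX4 at 1331, CA2 at 1215 and UCHL1 at 817 UMIs in all. PAX2, the exception, had 8 UMIs in 5 cells. Of 15 markers listed for blood, fibroblast, liver and skin cells, 5 had a row and could be read, and 4 of these had UMIs. The most abundant was COL1A1 with 12, TP63 was at 0, and their summed level was 0 to 11 UMIs per cell.

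The stretches printed here are the 100 bases before the annotated start of 4 pairs of paralogs whose counts differed widely, because the reads of this assay mark 5' ends. They are RefSeq promoter entries of build GRCh38.p14, matched by symbol, and read 5' to 3'. Capitals mark the GC box GGGCGG or its reverse complement CCGCCC.
RAB11A, chr15:65869391-65869490 (+ strand): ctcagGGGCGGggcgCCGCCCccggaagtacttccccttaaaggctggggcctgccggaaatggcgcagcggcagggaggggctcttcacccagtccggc
RAB11B, chr19:8390260-8390359 (+ strand): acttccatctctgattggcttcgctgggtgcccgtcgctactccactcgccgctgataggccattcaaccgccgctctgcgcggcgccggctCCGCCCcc
RAB8A, chr19:16111789-16111888 (+ strand): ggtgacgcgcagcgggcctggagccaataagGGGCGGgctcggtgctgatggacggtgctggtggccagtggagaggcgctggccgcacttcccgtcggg
RAB8B, chr15:63189506-63189605 (+ strand): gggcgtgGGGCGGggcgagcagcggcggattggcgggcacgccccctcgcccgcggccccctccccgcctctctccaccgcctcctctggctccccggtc
RAB4A, chr1:229271011-229271110 (+ strand): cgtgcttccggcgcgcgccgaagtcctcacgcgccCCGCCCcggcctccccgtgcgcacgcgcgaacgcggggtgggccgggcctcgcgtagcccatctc
RAB4B, chr19:40778147-40778246 (+ strand): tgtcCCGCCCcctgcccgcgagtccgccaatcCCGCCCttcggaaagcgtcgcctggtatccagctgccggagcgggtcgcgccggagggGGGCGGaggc
RAB9A, chrX:13689028-13689127 (+ strand): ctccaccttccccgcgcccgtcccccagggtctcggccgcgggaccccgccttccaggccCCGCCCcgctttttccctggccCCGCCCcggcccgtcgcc
RAB9B, chrX:103832258-103832357 (- strand): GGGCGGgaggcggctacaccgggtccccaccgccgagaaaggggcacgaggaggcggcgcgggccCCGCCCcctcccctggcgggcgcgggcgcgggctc

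Every one of these 8 stretches held a GC box, whether its gene had 542 UMIs (RAB11A) or 3 (RAB4B). Promoter entries on chromosome 8 were left out of the counts below, for RAB genes and for all genes. The GC box was found on either strand in the 250 bases before a start of 36 of 39 RAB genes with an entry. This was 92.3%, against 46.2% of the 27305 genes with an entry. Median GC content of that window was 64.8% over the 56 RAB promoter entries and 58% over all 35116 entries kept. The TATA box letters TATAAA were found in 1 RAB gene, RAB27A, against 13% of all genes. CCAAT was found in 30.8% of RAB genes and 37% of all genes. The ETS core CCGGAA was found in 33.3% and 17.2%, and the NRF1-type motif in 17.9% and 6.2%. The E-box CACGTG stood before RAB21, RAB24, RAB31, RAB4A and RAB5A, 12.8% against 7.73%. In RAB5A and RAB21 it was within the longer TCACGTGA. By detection, the GC box was before 17 of 18 RAB genes with a UMI in at least 24 cells and 19 of 21 of the others. The ETS core was before 9 of those 18 and 4 of those 21, and CCAAT before 2 of 18 and 10 of 21. The same split by detection was not made over all genes, so no link of these letters to RAB counts is drawn. The 27305 genes were not filtered by gene type or by expression in these cells. The differences from them are therefore not shown to be particular to RAB genes. All the counts are matches of letters and not shown to be sites.

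All 49 RAB rows had at least 1 UMI, as did 95.5% of all gene rows. RefSeq holds 63 protein-coding symbols of this form, and the other 14 (RAB6C, RAB6D, RAB7B, RAB17, RAB19, RAB25, RAB32, RAB33A, RAB39B, RAB40A, RAB41, RAB42, RAB43 and RAB44) are not analysed here. RAB7L1 is the older symbol of RAB29. There were 4579 RAB UMIs, 0.157% of the endogenous total (95% exact binomial interval 0.152% to 0.161%, counting error only). At least 20 UMIs were reached by 32 RAB genes (65.3%, against 48.7% of all gene rows), and at least 100 by 14 (28.6% against 19.8%). A UMI was found in at least 24 of the 47 cells for 20 RAB genes, 40.8%, against 31.9% of all gene rows. In every cell it was found for RAB8A and RAB2A, 4.08% of the RAB genes against 5.54% of all gene rows. Here and below, the gene rows were not filtered by gene type. A share above that of all gene rows is therefore not shown to be particular to a family.

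**Figure D1:**
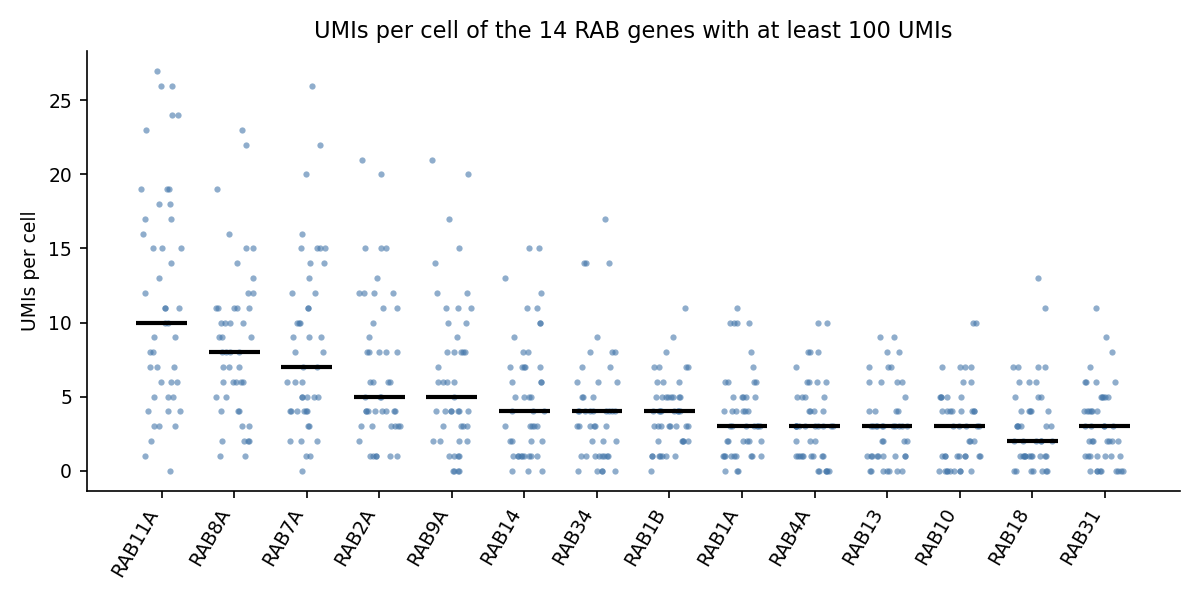
UMIs per cell (vertical axis, not scaled for depth) of the 14 RAB genes whose total was at least 100 UMIs. Each point is 1 of 47 cells and the bar is the median, which falls from 10 for RAB11A to 2 or 3 for the genes on the right.

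RAB genes of recycling endosomes were led by RAB11A, which directs membrane from the recycling endosome back to the surface. RAB11A had 0 to 27 UMIs per cell with a median of 10, and 542 in all, the highest of the RAB genes. It was without a UMI in 1 cell and was the highest or tied highest RAB gene in 20 cells. RAB14, which acts between endosomes and the Golgi, had 0 to 15 UMIs with a median of 4 and was found in 44 cells. RAB4A, the RAB of fast recycling, had 0 to 10 with a median of 3, in 41 cells. RAB11B and RAB35, a regulator of recycling and of the cell surface, each had a median of 1 UMI, with highest values of 11 and 9. They were found in 33 and 30 cells. RAB15 had 15 UMIs in 9 cells and RAB4B had 3 UMIs in 2 cells. Together these 7 genes held 24.7% of RAB UMIs.

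RAB genes of the late endosome, lysosome and autophagy held 18.5%. RAB7A, which controls the maturation and fusion of late endosomes, had 0 to 26 UMIs per cell with a median of 7, in 46 cells. RAB9A, which returns receptors from late endosomes to the Golgi, had 0 to 21 with a median of 5, in 43 cells. The cell with most RAB7A and most RAB9A was cell 62, whose total of 115303 UMIs was second to that of cell 43. RAB7L1, the RAB that recruits the kinase LRRK2, had 0 to 10 UMIs and a median of 1. RAB24, linked to autophagy, was found in 23 cells, with up to 5 UMIs. RAB12 and RAB9B had 11 UMIs in 8 cells and 9 in 6 cells.

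RAB genes of the ER and Golgi held 26.8% of RAB UMIs over 12 genes (95% exact binomial interval 25.5% to 28.1%, against 23.5% to 26% for recycling). The median cell had 22 UMIs of this group and 25 of the recycling group, so the order of these groups was not resolved. RAB2A, a regulator of ER-to-Golgi traffic, had 1 to 21 UMIs per cell with a median of 5. RAB34, found at the Golgi and needed for some cilia, had 0 to 17 with a median of 4. RAB1B and RAB1A, which carry vesicles from the ER to the Golgi, had 0 to 11 UMIs each, with medians of 4 and 3. RAB1B was found in 46 cells with 187 UMIs, and RAB34 in 42 cells with 207, and neither count was separated from the other by counting error. RAB18, which acts at the ER and lipid droplets, had 0 to 13 with a median of 2. RAB6A, of traffic within and back from the Golgi, had 0 to 9 with a median of 1, in 37 cells. RAB2B had 44 UMIs in 17 cells. RAB6B, RAB33B, RAB36, RAB30 and RAB39A had 15, 13, 11, 10 and 3 UMIs in all.

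RAB genes of transport from the Golgi to the plasma membrane held 15.8% over 4 genes. RAB8A, which acts in polarised secretion and cilium formation, had 1 to 23 UMIs per cell with a median of 8. RAB13, a RAB of cell junctions, and RAB10, which delivers glucose transporters and other cargo to the surface, both had a median of 3, up to 9 and 10. RAB8B had 0 to 3 UMIs and was found in 15 cells.

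The early endosome genes held 7.34% over 7 genes. Their most abundant member was RAB31, which acts between the Golgi and endosomes, with 0 to 11 UMIs per cell and a median of 3. RAB5A and RAB5C, paralogs that drive fusion of early endosomes, had 0 to 6 UMIs each, in 29 and 23 cells. RAB21, which binds integrins, also had 0 to 6, in 26 cells, and RAB22A 0 to 4 in 21 cells. RAB5B had 8 UMIs in 5 cells and RAB20 had 1 UMI.

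RAB genes of regulated secretion and of organelles related to lysosomes were found at low counts, 4.11% of RAB UMIs over 9 genes. None of the 9 had a UMI in at least 24 cells, which 31.9% of all gene rows had, but 9 genes are few for such a comparison. RAB3A, the RAB of synaptic vesicles, had 0 to 9 UMIs per cell in 23 cells. RAB3D had 0 to 8 in 19 cells, RAB3B 0 to 6 in 12 cells and RAB3C 5 UMIs in 3 cells. RAB38, known from melanosomes, had 34 UMIs in 14 cells, 52.9% of them in its 3 highest cells. RAB26, RAB27A, RAB37 and RAB27B had 13, 6, 2 and 1 UMIs. The 2 UMIs of RAB37 were in 1 cell, number 56.

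The remaining genes were RAB28 and RAB23, known from cilia, and RAB40B and RAB40C, which recruit a ubiquitin ligase. RAB28 had 0 to 5 UMIs per cell in 21 cells, and RAB23 had 10 UMIs in 8 cells. RAB40B had 0 to 6 UMIs in 19 cells and RAB40C 0 to 5 in 17 cells. In all 13 RAB genes had no more UMIs than the 12 of COL1A1. The share of all gene rows at or under 12 was not computed, so this is not shown to be particular to RAB genes. The median total was 18 UMIs over all gene rows and 44 over the RAB genes. The cells are all of 1 line, so no cell type lacking a RAB was at hand to measure background, and a share of cells with a UMI is no count of cells that express the gene.

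The order of the 49 genes was resolved only coarsely. Counts are of 5' ends, so they were not divided by transcript length, and how fully long mRNAs were copied to their 5' end was not tested. Of 48 neighbouring pairs in the order, counting intervals separated 4. These intervals leave out spread over cells beyond counting error and were not adjusted for the 48 comparisons, so fewer pairs may be truly separated. For RAB7A over RAB2A and for RAB9A over RAB14, the lower limit of the first gene's share of the pair was only 51.4%. RAB11A was higher than RAB8A in 30 cells and lower in 12. RAB7A was higher than RAB2A in 26 cells and lower in 16. RAB9A was higher than RAB14 in 28 and lower in 15, and RAB31 was higher than RAB11B in 24 and lower in 12. RAB8A and RAB7A, with 404 and 399 UMIs, were not separated (24 cells against 22). From RAB14 to RAB31, 9 genes with 239 to 144 UMIs, no neighbours were separated. The 4 leading genes held 36.5% of RAB UMIs and the 10 leading genes 64.3%. RAB11A itself was surpassed by 802 gene rows, 4.3% of the table.

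**Figure D2:**
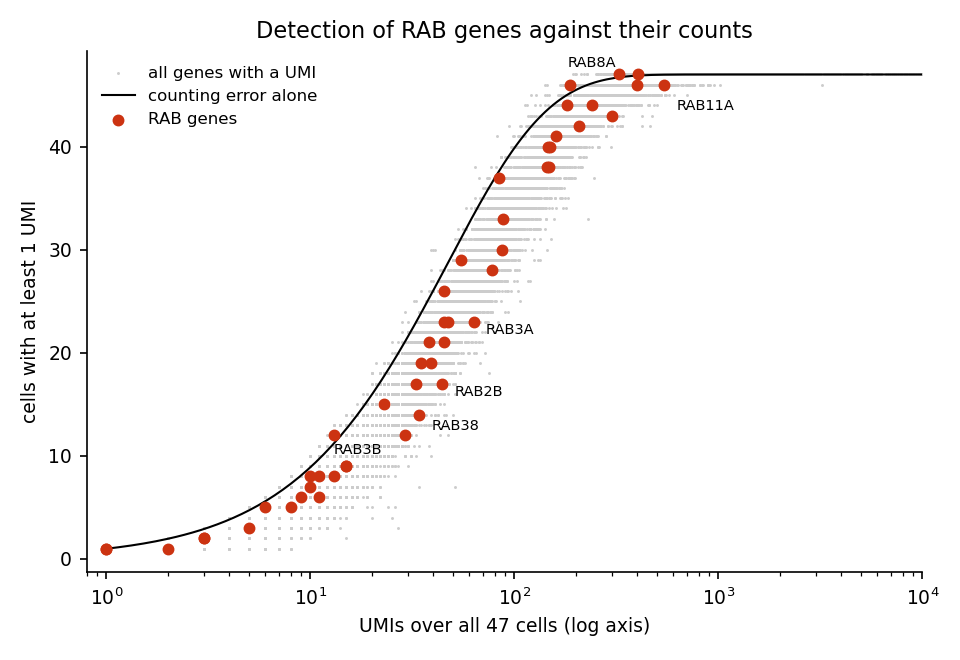
Cells with at least 1 UMI against UMIs over all 47 cells (log axis), for RAB genes in red and all genes with a UMI in grey; the line is the number of cells that counting error alone gives. Of the 32 RAB genes with at least 20 UMIs, 29 lie below the line, among them RAB2B (17 cells) and RAB38 (14 cells).

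Detection followed the counts. The line in the plot of detection is the number of cells expected if each UMI fell on a cell in proportion to the cell's endogenous total. Of the 32 RAB genes with at least 20 UMIs, 29 were in fewer cells than this, 90.6%, against 86.7% of all genes with at least 20 UMIs. The median ratio of observed to expected cells was 0.872 for the RAB genes and 0.866 for all. RAB3A was in 23 cells against 33.4 by counting error, RAB38 in 14 against 23.5 and RAB3B in 12 against 21. RAB6A, with 37 cells, was near its 37.6.

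Paralogs of a subfamily had unequal UMI counts in most cases. Only paralogs with a row enter the shares, so RAB6C, RAB6D and RAB40A are left out, and subfamilies with 1 such row are not given. Of the 13 subfamilies, RAB27 had only 7 UMIs. In 8 of the others one paralog held 79.1% to 98.1% of the UMIs. RAB4A held 98.1% of RAB4 UMIs (95% exact binomial interval 94.7% to 99.6%), RAB9A 97.1% of RAB9 (94.6% to 98.7%) and RAB34 95% of the RAB34 and RAB36 pair (91.2% to 97.5%). RAB8A held 94.6% of RAB8 (92% to 96.6%) and RAB2A 88.1% of RAB2 (84.3% to 91.2%). RAB11A held 86% of RAB11 (83.1% to 88.6%), RAB6A 84.8% of RAB6 (76.2% to 91.3%) and RAB31 79.1% of the RAB31 and RAB22A pair (72.5% to 84.8%). RAB8A was higher than RAB8B in 46 cells and equal in 1, and RAB11A was higher than RAB11B in 45 cells and lower in 2.

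Other subfamilies had no single dominant paralog. RAB1B and RAB1A split 368 UMIs, with 50.8% from RAB1B (45.6% to 56%). RAB1B was higher in 23 cells and RAB1A in 16. RAB5A held 50.9% of RAB5 UMIs (41.1% to 60.7%), RAB5C 41.7% and RAB5B 7.41%. RAB3A held 47.7% of RAB3 UMIs (39% to 56.6%), RAB3D 26.5%, RAB3B 22% and RAB3C 3.79%. RAB40B held 54.2% of the RAB40 UMIs (42% to 66%). RAB27 had 7 UMIs in all, too few to rank its paralogs.

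**Figure D3:**
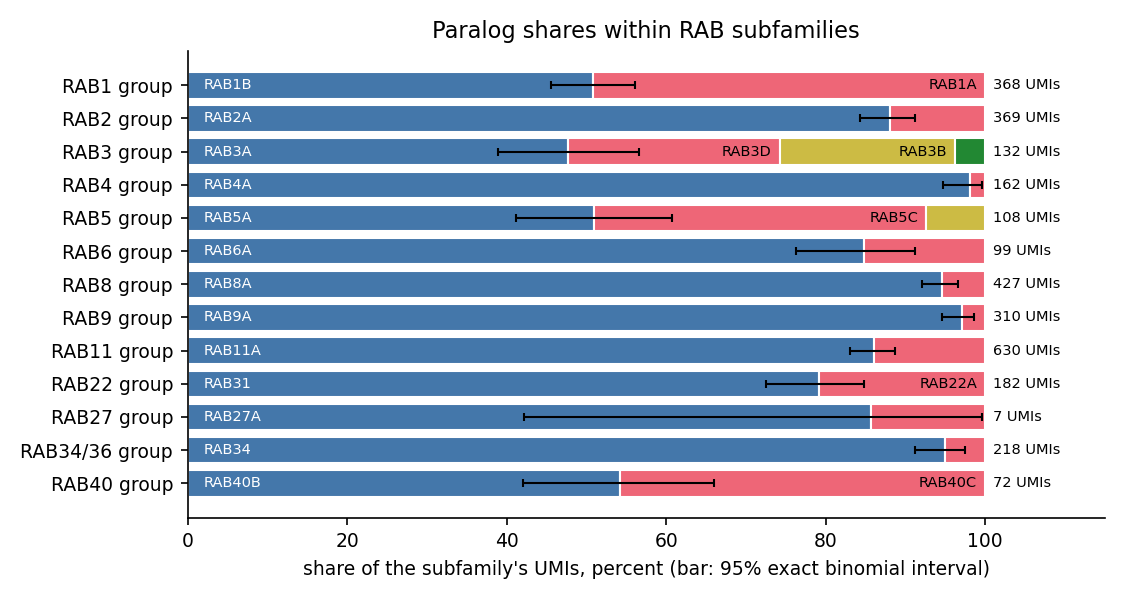
Share of each subfamily's UMIs over all cells (horizontal axis, percent) held by its paralogs, with the most abundant at the left and its 95% exact binomial interval as a black bar. RAB1, RAB5, RAB3 and RAB40 are divided between paralogs, whereas RAB4, RAB9, RAB34/36 and RAB8 have 1 paralog with at least 94.6%.

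Paralogs without a UMI in many cells were found together about as often as their detection alone gives. RAB5A and RAB5C were together in 15 cells, against 14.2 from the product of their shares of cells, and in 10 cells neither was found. RAB3A and RAB3B were together in 6 cells, against 5.87, and RAB3A and RAB3D in 10, against 9.3. RAB40B and RAB40C were together in 8 cells, against 6.87. These cells share their depth with both genes, so the comparison is a description.

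A cell had 26 to 212 RAB UMIs with a median of 87, and 14 to 33 RAB genes with a UMI with a median of 23 (SD 4.22, n = 47 cells). With at least 2 UMIs asked for, the median was 16, from 6 to 28. After thinning each cell to the 29325 UMIs of the smallest, the expected number of RAB genes had a median of 18.2. Cell 23 was lowest with 14 and cell 75 highest with 24.9. Cells with more endogenous UMIs had more RAB genes with a UMI (Pearson's r = 0.744, Spearman's rho = 0.737, n = 47). Without cells 43 and 62 r was 0.705, and it was 0.782 in the 30 cells numbered up to 48 and 0.665 in the 17 above. After thinning r was 0.269 (rho = 0.228), and 0.184 without those 2 cells. Divided by each cell's spike-in recovery, the RAB UMIs gave a median of 517 estimated RAB mRNA molecules per cell. The lowest estimate was 143 in cell 52 and the highest 1045 in cell 62. By the same estimate RAB11A had a median of 55.1 molecules per cell, RAB8A 45.1, RAB7A 43.2 and RAB2A 28.3. These estimates take mRNA to be counted as efficiently as the spike-ins.

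The median share of RAB UMIs in a cell's total was 0.156% (SD 0.0303, n = 47 cells). It ranged 2.67-fold, between 0.0795% (cell 52) and 0.212% (cell 87). Cell 52 had 26 RAB UMIs (95% exact binomial interval of its share 0.052% to 0.116%). The next lowest was cell 57 with 0.105%. Cell 52 also had the highest share of mitochondrially encoded RNA, 18.7% of its UMIs, against 9.59% in the next cell and a median of 5.46%. With mitochondrially encoded genes left out of the total it was still lowest at 0.0977%, against 0.114% in cell 57. With ribosomal protein genes left out too, the values were 0.126% and 0.155%. RAB share and endogenous UMIs had r = 0.251 and rho = 0.281 over the 47 cells, a weak relation in cells that share 1 run. It was 0.377 in the cells numbered up to 48 and 0.0984 in those above.

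**Figure D4:**
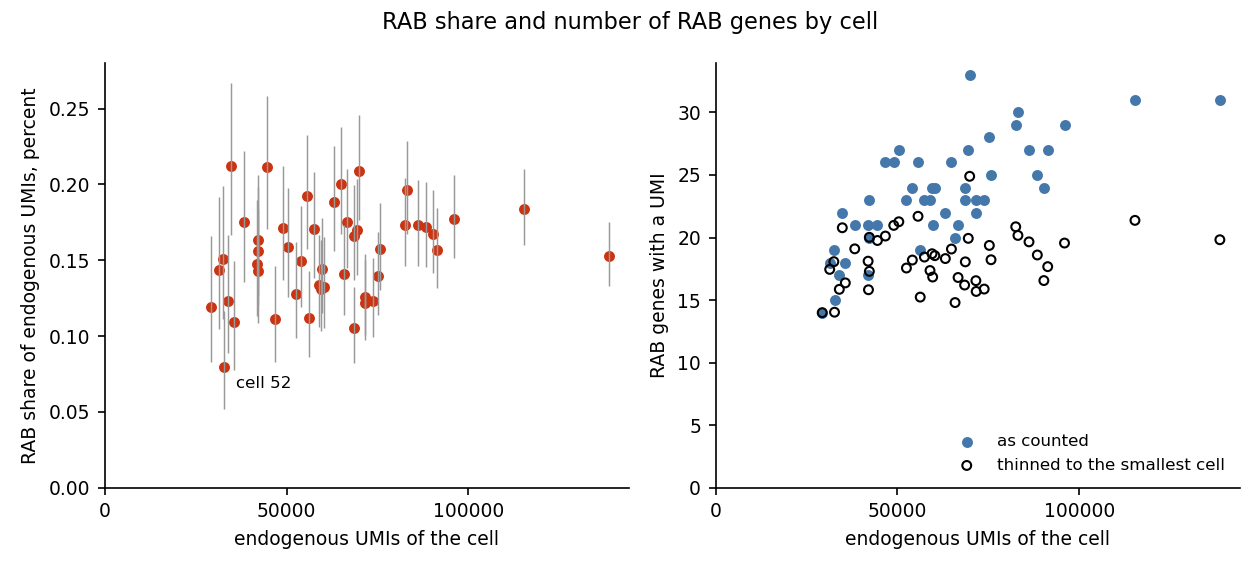
Left, RAB share of a cell's endogenous UMIs (percent, with 95% exact binomial intervals) against its endogenous UMIs; right, RAB genes with a UMI as counted (blue) and after thinning to the smallest cell (open). Cell 52 has the lowest share, 0.0795%, and thinning lowers the median number of genes from 23 to 18.2.

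The spread of RAB genes between cells was set beside that of the spike-ins, which were not matched to them for mean count. The measure used was an index of dispersion: chi-square of a gene's UMIs, with expected values proportional to each cell's total, over its degrees of freedom. It is near 1 where counting error is the whole spread. The 32 RAB genes with at least 20 UMIs had a median index of 2.11, from 1.01 to 3.60. The median was 2.00 over all 9088 genes with at least 20 UMIs and 2.11 over 52 spike-ins, whose shares were taken of the spike-in totals. None of the 32 RAB genes was above 3.97, the highest spike-in, against 3.21% of all genes. This is a rule of size without a p-value. The count was also 0 with DESeq2 size factors and with edgeR TMM factors. Above the 95th percentile of the spike-ins, 3.35, were RAB3B and RAB2B, 2 of 32, against 7.24% of all genes. Of the HEK293-associated genes, NEFM, CA2, SOX4 and NEFL were above every spike-in, with indices of 21.3, 12.6, 10.8 and 5.54. An index above the median spike-in was found for 16 of 32, 50%, against 43% of all genes.

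RAB3B had the highest index, 3.60, with 29 UMIs in 12 cells, and 3.01 without the cell in which it was highest after scaling. RAB2B followed with 3.51, and its 3 highest cells held 47.7% of its UMIs. Without its highest cell RAB2B had 3.12. RAB34 had 2.83, RAB40B 2.65, RAB3A 2.59 and RAB40C 2.59. RAB11A, the most abundant, had 2.47. The lowest indices were 1.01 for RAB6A, 1.11 for RAB8B and 1.32 for RAB5A. RAB8A and RAB7A, found in nearly every cell, had 1.70 and 1.74. For the same relative spread an index rises with the mean. Totals of the spike-ins compared ran from 21 to 37641 UMIs, against 542 for RAB11A. Equal indices of a RAB gene and a spike-in therefore need not be equal relative spreads.

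**Figure D5:**
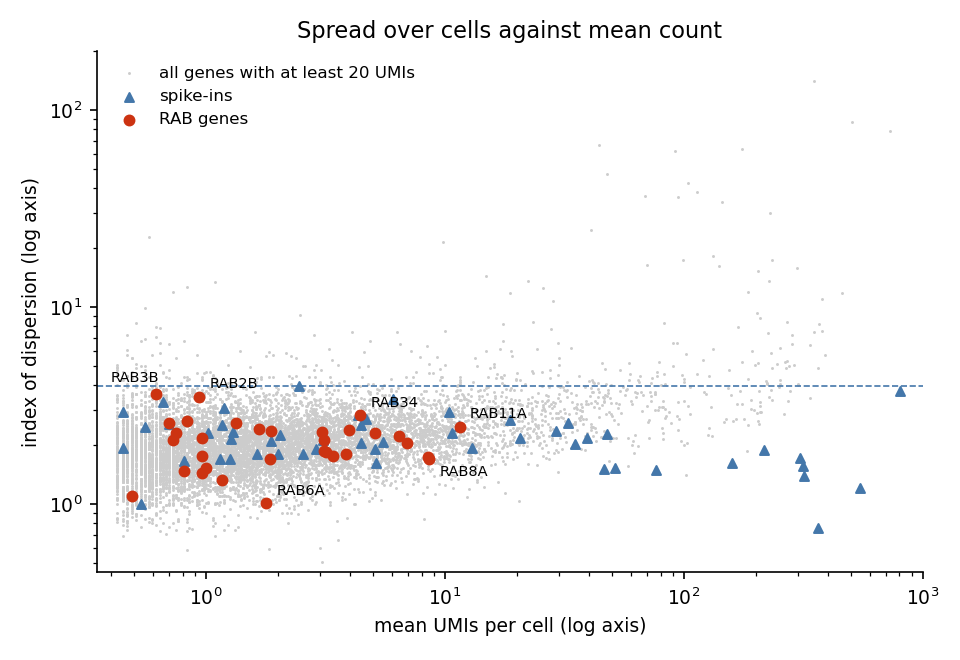
Index of dispersion (log axis) against mean UMIs per cell (log axis) for RAB genes (red), spike-ins (blue triangles) and all genes with at least 20 UMIs (grey). The dashed line is the highest spike-in, 3.97, and all 32 RAB genes lie below it, from RAB6A at 1.01 to RAB3B at 3.60.

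Genes for proteins that load, switch and read RABs were measured as mRNA too. The 7 genes of prenylation and membrane extraction all had at least 20 UMIs, and 5 were in at least 24 cells (71.4%, against 31.9% of all gene rows). RABGGTB, the catalytic subunit of the transferase, had 0 to 38 UMIs per cell with a median of 10. RABAC1, a RAB-binding membrane protein, had 1 to 39 with a median of 11, and the dissociation inhibitor GDI2 had 0 to 20 with a median of 6. CHM and its paralog CHML, which escort RABs to the transferase, had 40 and 35 UMIs in all.

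Subunits of TRAPP, the exchange complex for RAB1 and RAB11, were in at least 24 cells for 9 of 14 genes, 64.3%. The share of all gene rows in at least 24 cells was 31.9%. TRAPPC2L, TRAPPC1 and TRAPPC5 had medians of 14, 12 and 11 UMIs per cell, with highest values of 45, 23 and 36, and were in every cell. Other exchange factors were in at least 24 cells for 6 of 28 genes (21.4%), led by HPS1 (174 UMIs), RABIF (133) and GAPVD1 (132). Of 34 genes listed as GTPase-activating proteins, 13 were in at least 24 cells (38.2%), led by TBC1D9B (263), TBC1D7 (175) and TBC1D10B (155).

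Effectors reached 24 cells for 12 of 38 genes, 31.6%, against 31.9% of all gene rows. They were led by RABEPK (206 UMIs), the RAB5 effector RABEP1 (169) and APPL1 (163). RAB11FIP4, an effector of RAB11, had an index of 4.11, just above the highest spike-in at 3.97, with 37 UMIs in 16 cells and 8 of them in 1 cell. It was the 1 gene above every spike-in among the 85 genes of these pathway lists with at least 20 UMIs, 1.18%, against 3.21% of all genes. No other scaling was tried for it. Of the HOPS and CORVET tethers, which act with RAB7 and RAB5, 1 of 8 genes reached 24 cells (12.5%), VPS8 with 72 UMIs. VPS41 had 54 UMIs and VPS16 had 35.

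The ARF, ARL and SAR genes, another small GTPase family, were led by 1 abundant gene. ARF1, the Golgi coat regulator, had 1 to 80 UMIs per cell with a median of 25, more than 2-fold the UMIs of RAB11A over all cells. ARF4 had 0 to 25 with a median of 11, and SAR1A, which builds the coat of vesicles leaving the ER, 0 to 27 with a median of 9. The 25 genes of that family with a row held 0.15% of endogenous UMIs, against 0.157% for the 49 RAB genes. A UMI in at least 24 cells was found for 17 of those 25 (68%) and 20 of the 49 (40.8%), against 31.9% of all gene rows. The median indices of that family and of the RAB genes were 2.21 and 2.11. Of 8 genes listed outside the symbol rule, RAN, which drives nuclear transport, had 3398 UMIs. Of the RAB-like ones, RABL5 had 173, and RABL6 and IFT27 had 126 each.

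Some RAB counts may include reads of other genes. In GENCODE 29, 25 of the 49 RAB genes shared an exon stretch with another gene, 21 of them with a gene on the opposite strand. The same share over all genes was not computed, so such overlap is not shown to be particular to RAB genes. The use of strand in counting is not given in the sources used here. Partners with more UMIs than the RAB were SRPRB (364, RAB6B 15), TMEM205 (479, RAB3D 35), MPV17L2 (173, RAB3A 63), TOX4 (114, RAB2B 44), BAG2 (87, RAB23 10) and PIGB (7, RAB27A 6). RAB30-AS1, named for its place opposite RAB30, had 125 UMIs against 10 for RAB30. RAB4B is joined to its neighbours in the readthrough genes MIA-RAB4B and RAB4B-EGLN2. Pseudogenes named after RAB11A, RAB9A, RAB1A, RAB31, RAB28, RAB5C and RAB9B are annotated in RefSeq, up to 5 per gene. How far such overlaps and copies changed the counts was not tested.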

How the data were processed

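Single HEK293 cells were captured in a microfluidic circuit, and cDNA made with oligo-dT primers and template switching was sequenced from its 5' end, per the labels' protocols. The values are raw UMI counts in the deposited table, as the authors made it. Tools and builds named in the submitters' processing notes, with no role or order, were STAR 2.4.0a, cutadapt 1.2.1, GRCh37 and hg19. How UMIs were collapsed, and which annotation, strand setting, rule for multiply mapping reads and cell filter applied, is not given in the sources used here. A repeated header line (0.0602% of all values), the 78 spike-in rows and a phiX174 row with 1 UMI were kept out of totals. Each of 47 columns matched 1 label, and 0 were left over. A cell had 29325 to 138647 endogenous UMIs. For a gene at 0 in all cells the upper limit is 0.000103% of the total (3 counts).

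The rule for members, the role, subfamily and pathway lists and the markers were chosen with earlier results of these data known. Every RAB row was accounted for. Values were given for RABs with at least 100 UMIs, the leading RAB of each role, paralogs and RABs above every spike-in, and for the 3 most abundant genes and any gene above every spike-in in each other list. Detected means at least 1 UMI. Thinned detection is the exact hypergeometric expectation. Intervals are 95% exact binomial (Clopper-Pearson) and cover counting error only. The index of dispersion was computed for genes with at least 20 UMIs and tested on simulated data. Alternatives used DESeq2 1.42.0 size factors, edgeR 4.0.16 TMM factors, other minimums, thinning and cells left out. No test across cells was made, since they are 1 sample. Software was Python 3.11.15 with numpy, pandas and scipy. Promoter letters came from RefSeq tables and exon overlaps from GENCODE 29, both of GRCh38, so no coordinates were given for the counted rows. One other gene family and 1 marker that were listed are not reported here.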

Additional observations from a re-analysis of the deposited data

How the results depend on the processing

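Of 146 alternative values, 141 stayed within the spread or interval of the value reported, on its side of the threshold or, for counts of genes, within 1.5 times of it. The median number of RAB genes per cell was 23, against 16 with at least 2 UMIs and 18.2 after thinning. The median RAB share was 0.23% without mitochondrially encoded and ribosomal protein genes in the total, a smaller denominator. It was 0.0928% without the 25 RAB genes that share exons with another gene, an alternative chosen after seeing the data. Above the 95th percentile of the spike-ins, 3.35, were 2 RAB genes, RAB3B and RAB2B (7.24% of all genes passed), against 0 above the highest. The RAB genes with a UMI in the required share of cells were 20, against 14 with at least 2 UMIs, 15 after thinning and 22 in each block of cells. In the 96 alternative indices of single RAB genes, none passed the highest spike-in. The highest were 3.67 with DESeq2 size factors and 3.37 with TMM factors. Indices without a gene's highest cell were set against spike-ins with all cells kept, so they had little room to pass. All 26 alternatives of the leading paralogs' shares lay within the counting intervals given. Some of them left out only cell 52, which held 26 of the 4579 RAB UMIs, and could hardly move a share. No paired analysis was possible because the labels give 1 group. Depth limits the 17 RAB genes with under 20 UMIs. With minimums of 5 and of 1 UMI, none was above every spike-in, the spike-ins being chosen by the same minimum. RAB20 and RAB27B, with 1 UMI each, could not have passed in any cell. The minimum of 1 UMI therefore says nothing about them.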
